A study of Mus musculus with 12 samples.

Results

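The genes described here make up 3 connected routes of glucose use: glycolysis with the carriers for glucose and lactate, the entry of pyruvate into mitochondria, and the pentose phosphate pathway. The members were 35 genes taken by symbol from a table of 17637 genes, and each of the 35 was found on 1 row. They comprised 19 glycolytic enzymes, 5 membrane carriers, 7 genes of the pyruvate dehydrogenase step and 4 pentose phosphate enzymes. Of the 35, 7 are isozymes best known from muscle or heart (Slc2a4, Hk2, Pfkm, Pgam2, Eno3, Ldhb and Pdk4), 3 are expressed in few tissues (Slc2a3, Aldoc and Eno2), and 25 are widely expressed. All 35 passed the minimum mean value of 1 used for testing.

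RNA came from hearts of wild type CD1 mouse embryos, an outbred stock, at E16.5, late in gestation. The artery group was the mesothelium with the tissue beneath it, peeled where the great arteries leave the heart. The ventricle group was the epicardium with the subepicardium, peeled from the ventricles. Tissue was pooled by litter, and each of 6 litters yielded 1 library of either kind, numbered by litter. No treatment or mutation separated the groups. Mesothelial markers were present in both, with Upk3b at 845 ± 232 in artery and 1275 ± 281 in ventricle (n = 6 per group, SD), and the arterial smooth muscle gene Myh11 was at 341 ± 124 in artery and 5.27 ± 2.11 in ventricle.

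Glycolysis splits glucose into pyruvate in the cytosol and yields ATP and NADH without oxygen. Pyruvate is then reduced to lactate by lactate dehydrogenase or oxidized to acetyl-CoA by the mitochondrial pyruvate dehydrogenase complex, which the pyruvate dehydrogenase kinases switch off by phosphorylation. The pentose phosphate pathway branches off glucose 6-phosphate, makes NADPH and ribose, and returns sugars to glycolysis through transketolase and transaldolase. Heart muscle of the fetus draws much of its energy from glucose and lactate, and muscle cells use particular isozymes of several glycolytic steps.

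Values are a normalized signal, a CPM on a scaled library size. The whole reads behind the values were recovered: artery libraries averaged 14.2 ± 5.37 M reads, with 6.77 M in artery 1 as the lowest, and ventricle libraries 18.4 ± 2.12 M (SD over 6 libraries), with 22.1 M in ventricle 6 as the highest. Every member had at least 69 reads in every library. Artery 1, the shallowest library, and artery 4, the artery library richest in mesothelial genes, stood apart in some measures below, as did ventricle 2, the highest ventricle library for several members, so counts are also given without them. Differences are artery minus ventricle on the log2(value + 1) scale with the standard error (SE), and a gene was called at a Benjamini-Hochberg adjusted p of 0.05 by limma over 14779 genes. Every p-value measures variation among litter pools, not among single embryos. The median difference over all genes tested was -0.040.

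Most genes of glycolysis, carriage and pyruvate entry fell in the artery layers, and no pentose phosphate gene did. Of the 35 members, 22 were lower in artery, 1 was higher and 12 did not pass, against a background of 11.8% lower and 12.2% higher over all genes. The median difference of the members was -0.71. By route, 13 of 19 glycolytic enzymes, 4 of 5 carriers, 5 of 7 pyruvate entry genes and 0 of 4 pentose phosphate genes were lower, with medians of -0.74, -0.60, -0.71 and 0.031. The artery values lay wholly below the ventricle values for 12 members (4.25% of all genes), 0 lay wholly above them (7.61% of all genes), and 19 members were lower in each of the 6 litters (13.9% of all genes). Together the members made up 0.541 ± 0.126% of an artery library and 0.883 ± 0.147% of a ventricle library (SD, n = 6 each). The pentose phosphate genes took 0.0292 ± 0.0013% in artery and 0.0279 ± 0.0007% in ventricle.

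**Figure D1:**
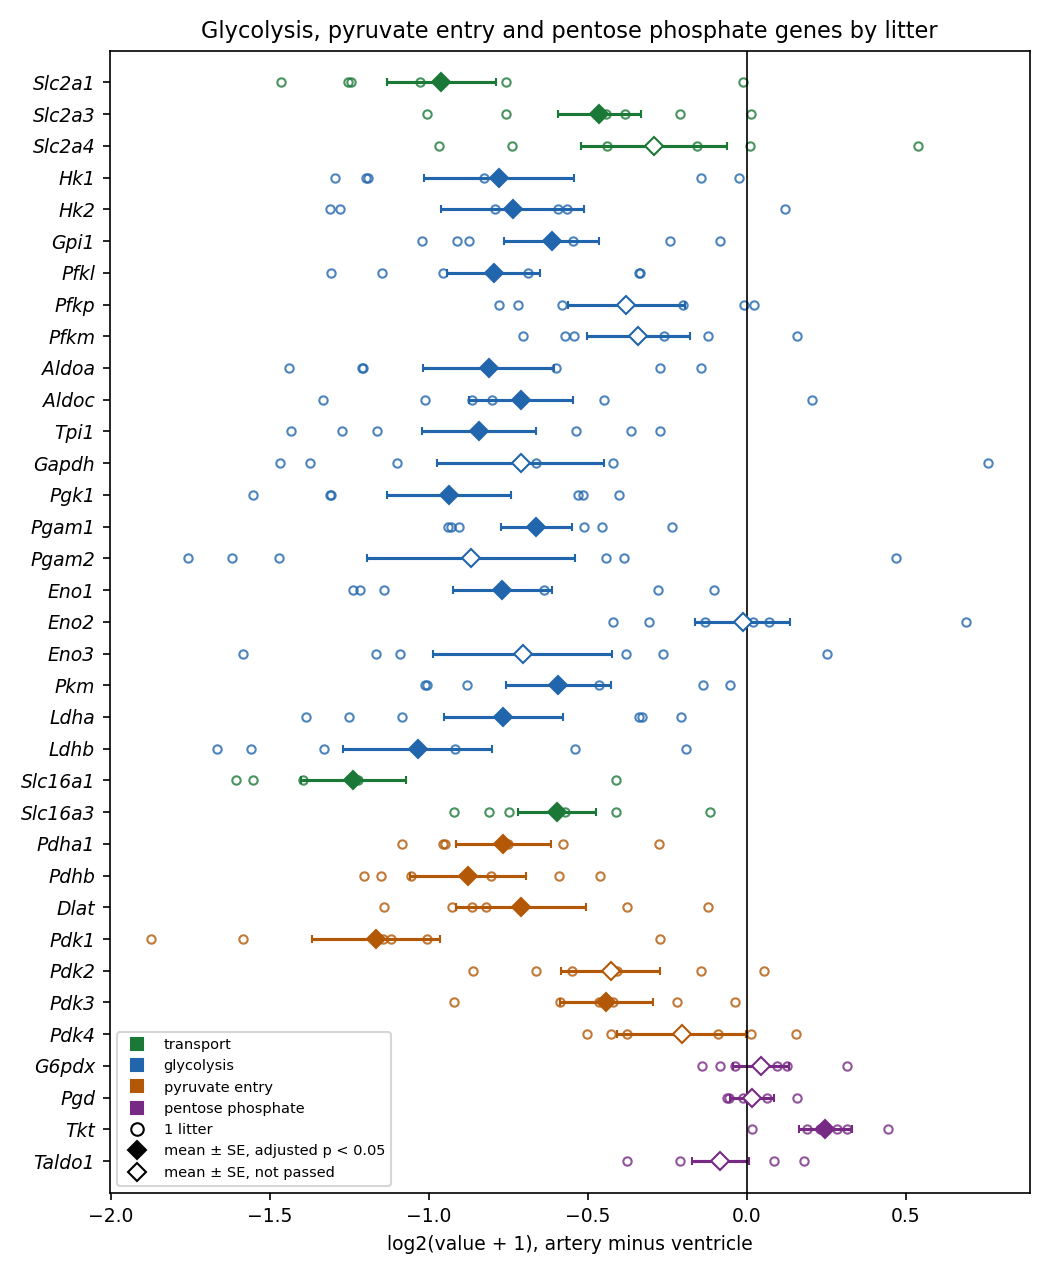
Difference of each member between artery and ventricle on the log2(value + 1) scale. Open circles are litters, diamonds the mean with its SE, filled where adjusted p was under 0.05 (limma). The 22 filled diamonds left of 0 belong to glycolysis, carriers and pyruvate entry, and the 4 pentose phosphate genes lie between -0.083 and 0.25.

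The count of 22 held with 22 members called again by edgeR, by DESeq2, by limma-voom, with the litter as a block and without artery 1 and artery 4. With the litter as a block 25 members were lower and 0 higher, in a fit that called 1857 of 14779 genes lower. Without artery 1 and artery 4 the count was 26, where 2635 of 14734 genes were lower, and without ventricle 2 it was 19, where 1370 of 14798 genes were lower. Without litter 3 the members lower numbered 14, and the genes lower over the whole table also fell, to 842 of 14795, against 1746 of 14779 with all libraries. All 22 kept their direction within lane 1 (2 artery and 2 ventricle libraries, 3 members lower) and within lane 2 (3 artery and 4 ventricle libraries, 9 lower, 8 of them among the 22).

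Glucose enters cells through facilitative carriers, of which Slc2a1 is the widely expressed one. Slc2a1 (chr4:119108711-119137983 in GRCm38, plus strand) had a lowest, median and highest value of 53.4, 73.1 and 133 in artery, against 134, 151 and 163 in ventricle. It was lower, with a difference of -0.96 ± 0.17 (adjusted p = 0.00122, limma), a 1.95-fold difference on that scale, in 6 of 6 litters. The groups did not overlap, but artery 4, at 132.7, was level with ventricle 4, at 134.0. Slc2a3, a high-affinity carrier known from neurons, was at 17.5 ± 3.92 in artery and 24.1 ± 1.61 in ventricle (n = 6 per group, SD) and was lower, with a difference of -0.46 ± 0.13 (adjusted p = 0.0194; 0.0891 without litter 3, 0.0854 without litter 5 and 0.0519 without litter 6). The insulin-sensitive muscle carrier Slc2a4 was at 24.4 ± 8.93 in artery and 29.6 ± 9.57 in ventricle and did not pass (adjusted p = 0.393), with a difference between -0.79 and 0.20 (95% interval).

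Lactate and pyruvate cross the membrane through monocarboxylate carriers, and here lay the largest difference of the 35 members. Slc16a1 (MCT1 protein, chr3:104638668-104658462, plus strand) had a lowest, median and highest value of 126, 143 and 273 in artery, against 318, 366 and 436 in ventricle. Its groups did not overlap, and it was lower, with a difference of -1.24 ± 0.16 (adjusted p = 0.000112, limma), or 2.36-fold, in 6 of 6 litters. Artery 4 held the value of 273, and the other 5 artery libraries lay between 126 and 147. Slc16a3, the carrier typical of lactate-exporting cells, was at 89.9 ± 17.9 in artery and 135 ± 14.3 in ventricle, lower, with a difference of -0.60 ± 0.12 without overlap (adjusted p = 0.00337).

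**Figure D2:**
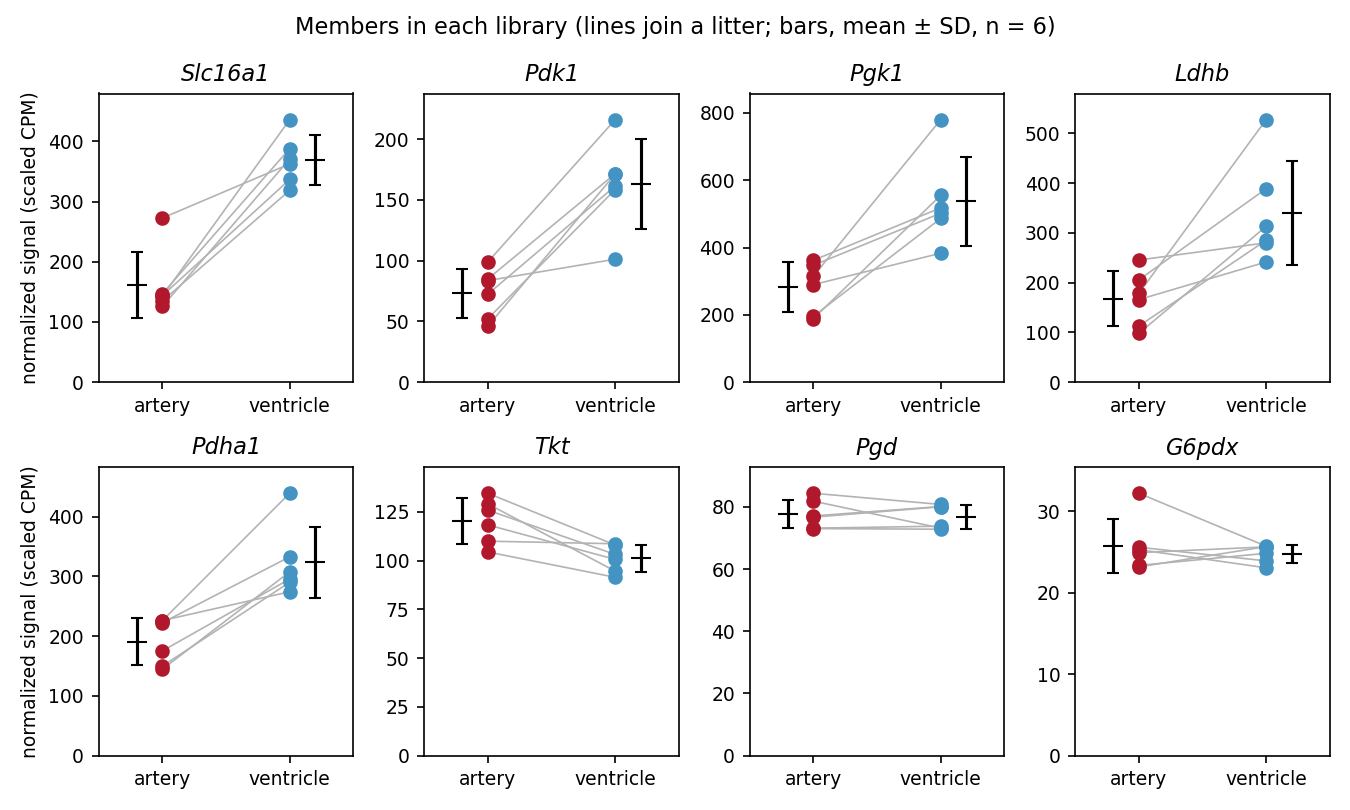
Normalized signal of 8 members in each library, artery left and ventricle right, with a line for each litter and bars for the mean ± SD (n = 6). Slc16a1, Pdk1, Pgk1 and Pdha1 show no overlap between groups, while Pgd and G6pdx overlap and Tkt is higher in artery in 6 of 6 litters.

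The first steps of glycolysis trap glucose and commit it. Hexokinase 1 (Hk1), the general form, was at 141 ± 48.4 in artery and 238 ± 69.5 in ventricle, lower, with a difference of -0.78 ± 0.24 (adjusted p = 0.028, limma). Hk2, the form of insulin-sensitive tissues, was at 42.7 ± 14.5 in artery and 70.0 ± 18.4 in ventricle, lower, with a difference of -0.74 ± 0.23 (adjusted p = 0.0288). Neither call was firm, since that of Hk1 was lost in 9 and that of Hk2 in 8 of 18 omissions of 1 litter or 1 library, with adjusted p up to 0.126 and 0.120, both without litter 3. Gpi1, glucose phosphate isomerase, was at 386 ± 79.8 in artery and 585 ± 93.2 in ventricle, lower, with a difference of -0.61 ± 0.15 without overlap (adjusted p = 0.00929).

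Phosphofructokinase, the main control point of glycolysis, has 3 subunit genes, and they did not give the same call. The liver-type subunit Pfkl was at 124 ± 27.5 in artery and 213 ± 28.6 in ventricle, lower, with a difference of -0.80 ± 0.15 without overlap (adjusted p = 0.00151, limma). The platelet-type Pfkp, at 125 ± 26.6 in artery and 165 ± 50.0 in ventricle, did not pass (-0.38 ± 0.18, adjusted p = 0.158). Nor did the muscle-type Pfkm, at 106 ± 19.5 in artery and 136 ± 34.3 in ventricle (-0.34 ± 0.16, adjusted p = 0.150). Per kilobase of transcript, Pfkl made up 33.1 ± 2.62% of the 3 genes in artery and 40.2 ± 3.36% in ventricle, and Pfkm 36.8 ± 2.35% and 32.5 ± 1.64% in the same order (n = 6 per group, SD).

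The middle enzymes split and oxidize the sugar. Aldolase A (Aldoa, chr7:126795234-126800751, minus strand) had the highest level per kilobase of all members when copies were not counted, 403 ± 121 in artery and 693 ± 163 in ventricle. Its signal was 608 ± 183 in artery and 1047 ± 247 in ventricle, lower, with a difference of -0.81 ± 0.21 (adjusted p = 0.0114, limma; 0.0555 without litter 3). Its brain-type relative Aldoc was near 1% of the aldolase signal per kilobase, at 0.824 ± 0.199% in artery and 0.788 ± 0.108% in ventricle, and was lower, with a difference of -0.71 ± 0.16 (adjusted p = 0.00664) in 5 of 6 litters. Triose phosphate isomerase Tpi1 was at 370 ± 100.3 in artery and 649 ± 108 in ventricle, lower, with a difference of -0.84 ± 0.18 without overlap (adjusted p = 0.00397).

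Phosphoglycerate kinase 1 (Pgk1, chrX:106187100-106203699, plus strand), which makes the first ATP of the pathway, had a lowest, median and highest value of 189, 302 and 362 in artery, against 383, 510 and 780 in ventricle. The groups did not overlap, and it was lower, with a difference of -0.94 ± 0.20 (adjusted p = 0.00353). Gapdh, the enzyme often used as a reference gene, was at 71.7, 110 and 291 in artery (lowest, median, highest) and 163, 200 and 275 in ventricle. It did not pass (-0.71 ± 0.26, adjusted p = 0.0662), and artery 1 held the highest value of all 12 libraries. Without artery 1 the difference was -0.96 and passed (adjusted p = 0.000857). Gapdh is also the member with the most near-identical copies in the genome: 93 other annotated genes matched it over at least 200 bases at 95% identity, 8 of them analysed here.

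The last steps yield pyruvate. The mutase Pgam1, general form, was at 280 ± 42.8 in artery and 441 ± 38.9 in ventricle, lower, with a difference of -0.66 ± 0.11 without overlap (adjusted p = 0.000755, limma). Enolase 1 (Eno1) was at 176 ± 41.7 in artery and 296 ± 43.3 in ventricle, lower, with a difference of -0.77 ± 0.16 without overlap (adjusted p = 0.00281), and of -0.80 ± 0.16 when summed with its copies Eno1b and Gm4735, whose sequences are 99.5% and 99.6% identical to it, so the level of Eno1 itself is uncertain. Neuronal enolase Eno2 was at 34.5 ± 9.09 in artery and 34.05 ± 4.10 in ventricle, with a difference between -0.34 and 0.31 (95% interval). Pyruvate kinase Pkm was at 656 ± 148 in artery and 977 ± 166 in ventricle, lower, with a difference of -0.59 ± 0.16 (adjusted p = 0.0177; 0.0561 without litter 2, 0.0904 without litter 3 and 0.0514 without litter 5). The gene-level values do not separate its splice forms.

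Lactate dehydrogenase is a tetramer of a subunit called muscle-type but widely expressed, Ldha, and a heart-type subunit, Ldhb. Ldha was at 453 ± 123 in artery and 757 ± 151 in ventricle, lower, with a difference of -0.77 ± 0.19 (adjusted p = 0.0092, limma; 0.0528 without litter 3). Ldhb (chr6:142490249-142507957, minus strand) had a lowest, median and highest value of 97.9, 172 and 245 in artery, against 242, 299 and 527 in ventricle. It was lower, with a difference of -1.03 ± 0.23 (adjusted p = 0.00587), the largest difference among the glycolytic enzymes, in 6 of 6 litters, with overlap only between artery 1 (245.5) and ventricle 4 (241.5).

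Each of 6 muscle or heart isozymes was compared with a more widely expressed isozyme of the same step as a log2 ratio of (value + 1) within each library. Of 6 ratios, 2 differed between groups at an adjusted p of 0.05 over the 6 (two-sided exact permutation over all assignments of the libraries, smallest possible p 0.00216). Pfkm over Pfkl was higher in artery, -0.22 ± 0.20 against -0.67 ± 0.19 in ventricle (n = 6 per group, SD; exact permutation p = 0.00649, adjusted p = 0.0390), in 6 of 6 litters. Ldhb over Ldha was lower in artery, -1.45 ± 0.12 against -1.18 ± 0.24 (exact permutation p = 0.0130, adjusted p = 0.0390), in 5 of 6 litters. Slc2a4 over Slc2a1 was at -1.69 ± 0.51 in artery and -2.36 ± 0.35 in ventricle and did not pass (exact permutation p = 0.0346, adjusted p = 0.0693). Its difference of 0.67 was the largest of the 6 ratios, and it was higher in artery in 6 of 6 litters. The ratios of Pgam2 to Pgam1 (exact permutation p = 0.511), Eno3 to Eno1 (0.768) and Hk2 to Hk1 (0.721) did not pass. The 2 ratios that passed thus went in opposite directions, and both missed the threshold when permuted within litters (adjusted p = 0.09375 for log2 ratio Pfkm over Pfkl and 0.125 for log2 ratio Ldhb over Ldha), where the smallest possible unadjusted p is 0.03125. The call of Pfkm over Pfkl was also lost without litter 3, 5 or 6 (adjusted p 0.0714 to 0.0952), and that of Ldhb over Ldha without litter 2, 3, 4, 5 or 6 (adjusted p 0.0714 to 0.0952).

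**Figure D3:**
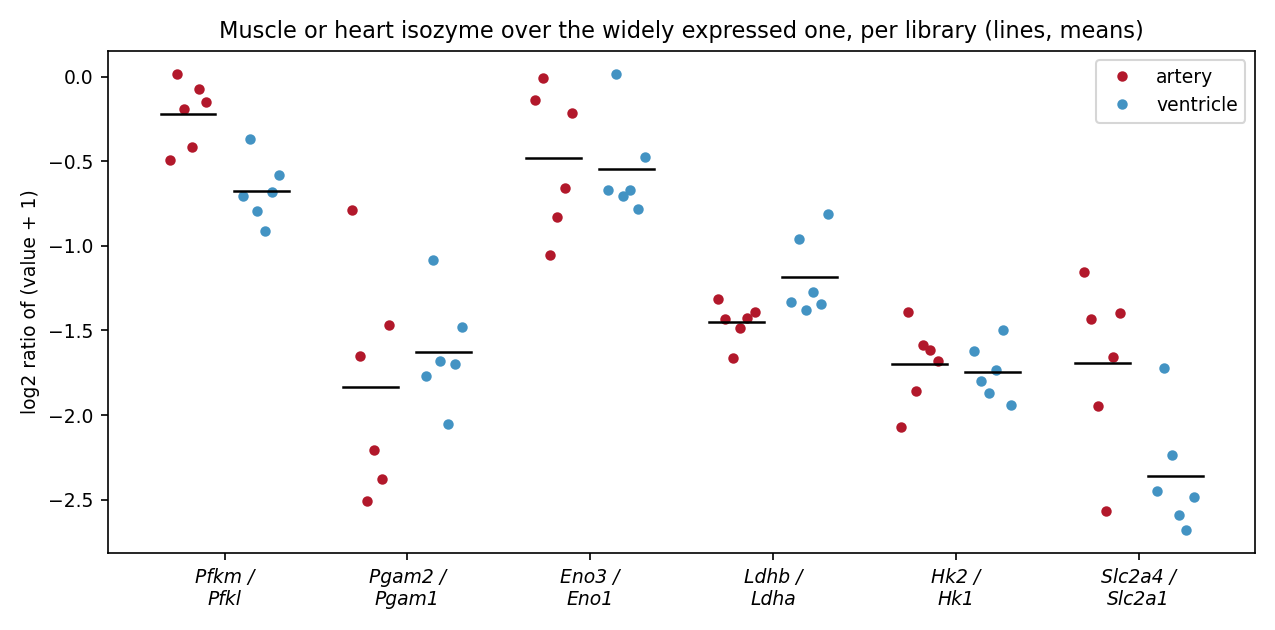
Log2 ratio of (value + 1) of a muscle or heart isozyme over its widely expressed relative in each library, artery left and ventricle right, with a line at each mean. Artery libraries lie higher for Pfkm over Pfkl (mean -0.22 against -0.67) and lower for Ldhb over Ldha (-1.45 against -1.18). The ratios of Pgam2, Eno3 and Hk2 to their relatives overlap broadly.

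Among the 7 muscle isozymes, 2 passed (Hk2 and Ldhb), and of the 25 widely expressed members 18 were lower, beside 11.8% of all genes. The median difference was nearly the same in both classes, -0.705 for the muscle isozymes and -0.711 for the widely expressed members, and the difference in counts was not tested. The widely expressed class also holds the 4 pentose phosphate genes (0 lower, median 0.031), which the muscle class does not, so the classes differ in route as well. The muscle mutase Pgam2 had a lowest, median and highest value of 39.7, 77.7 and 176 in artery, against 91.9, 136 and 238 in ventricle, a difference of -0.87 ± 0.33 (adjusted p = 0.071, limma). Muscle enolase Eno3 was at 65.8, 141 and 207 in artery and 146, 187 and 364 in ventricle, a difference of -0.71 ± 0.28 (adjusted p = 0.0861). In both genes artery 1 was the highest artery library and exceeded ventricle 1. With the litter as a block both passed (adjusted p = 0.0490 for Pgam2 and 0.0448 for Eno3), and both passed without artery 1 (-1.103 and -0.86).

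Most heart muscle genes were lower in artery too. The 24 genes of the heart muscle list took 1.32 ± 0.651% of reads in artery (range 0.533 to 2.22%) and 2.55 ± 0.875% in ventricle (range 1.65 to 4.15%; exact permutation p = 0.013, adjusted p = 0.0204 over 11 lists), lower in artery in 6 of 6 litters. Of the 24, 15 were lower and 0 higher, beside 11.8% lower and 12.2% higher over all genes. None was without reads, and beta myosin Myh7 was at 2690 ± 1331 in artery and 6392 ± 2582 in ventricle. Some genes best known from atrial muscle, named after their values were seen, had differences above 0 that did not pass. They were Nppa (1.16, at 127 ± 168 in artery and 34.6 ± 16.3 in ventricle), Myl4 (0.73) and Myl7 (0.15). Alpha myosin Myh6, also found in atrial muscle, went the other way and did not pass either (-0.65, at 1884 ± 1245 in artery and 2578 ± 986 in ventricle). Artery 1 had the highest heart muscle share, Pgam2 and Eno3 of the artery libraries and artery 3 the lowest of all 3, while ventricle 2 was highest and ventricle 4 lowest among ventricle libraries in the same 3 measures. Slc2a4, Ldhb and widely expressed members such as Aldoa and Tpi1 had the same highest and lowest libraries. The muscle isozymes Hk2 and Pfkm were instead highest in artery 2 and lowest in artery 5 among artery libraries, and Pdk4 was lowest in artery 1. Mesothelial and epicardial genes were also lower in artery, 12 of 12, at 0.217 ± 0.0647% of reads in artery (range 0.164 to 0.338%) and 0.413 ± 0.0856% in ventricle (range 0.280 to 0.531%; exact permutation p = 0.00433, adjusted p = 0.00794). Artery 4 held the highest such share of the artery libraries (0.338%, the others 0.164 to 0.230%), and it was also the artery library with the highest Slc16a1 and Slc2a1. The part of these cell types in the differences of the members was not tested, and in pooled tissue fewer cells of a type and less RNA per cell cannot be told apart.

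**Figure D4:**
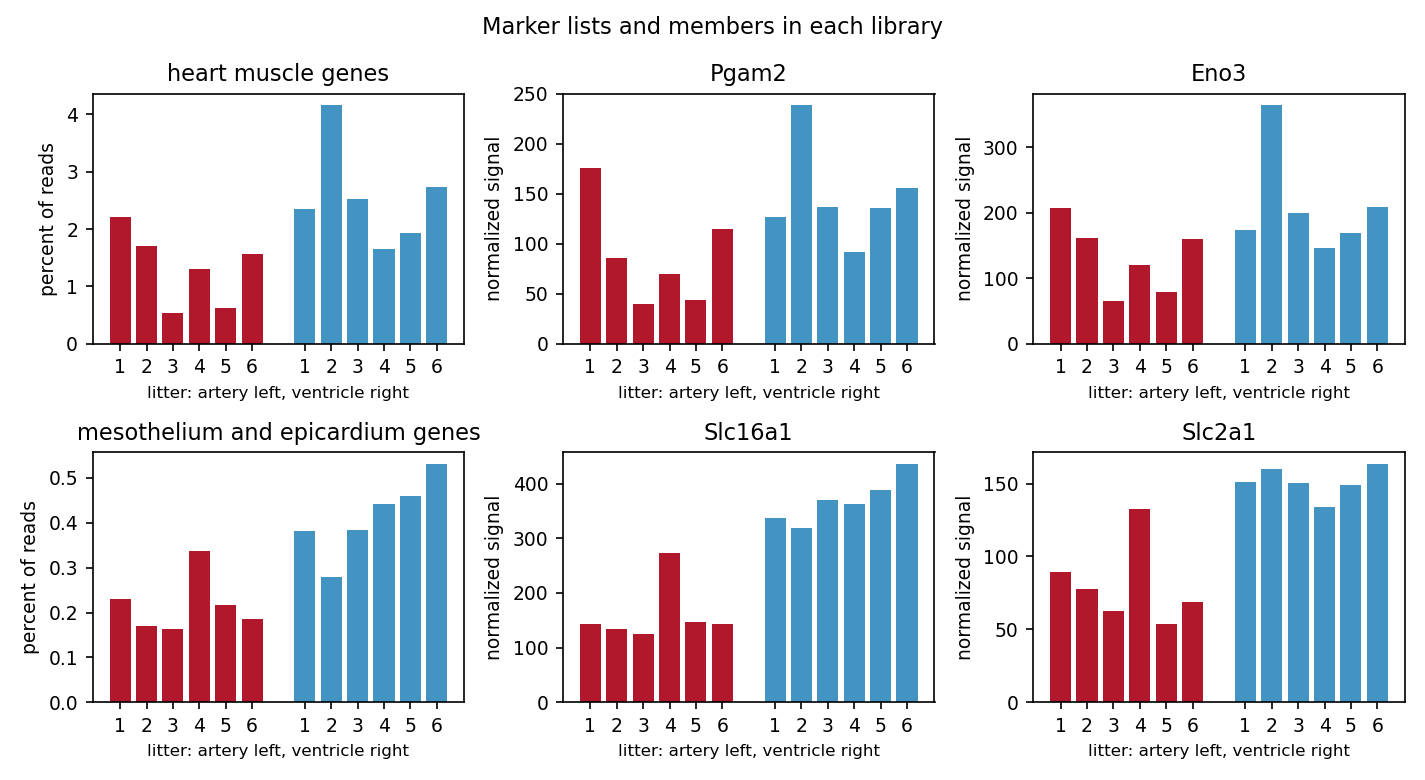
Summed share of reads of heart muscle genes and of mesothelial and epicardial genes, above and below at left, and normalized signal of Pgam2, Eno3, Slc16a1 and Slc2a1, by litter, artery left and ventricle right. Artery 1 (2.22%) and ventricle 2 (4.15%) lead their groups in heart muscle share, Pgam2 and Eno3. Artery 4 (0.338%) leads the artery libraries in mesothelial share, Slc16a1 and Slc2a1.

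Other cell types were followed in the same way, beside 11.8% lower and 12.2% higher over all genes. Smooth muscle genes took 0.290 ± 0.0599% of reads in artery and 0.0915 ± 0.0176% in ventricle, with 6 of 8 higher in artery and 0 lower (exact permutation p = 0.00216, the smallest possible, adjusted p = 0.00595). Red blood cell genes took 0.655 ± 0.582% in artery and 0.272 ± 0.0651% in ventricle, 3 of 9 tested higher (adjusted p = 0.0208, exact permutation), and autonomic neuron genes 0.00313 ± 0.00139% and 0.000938 ± 0.000131% in the same order, 3 of 6 higher (adjusted p = 0.00595, exact permutation). Shares of skeletal muscle genes (adjusted p = 0.0738, exact permutation, 2 of 8 higher), endothelial genes (adjusted p = 0.0738, 2 of 8 lower) and macrophage genes (adjusted p = 0.121, 1 of 8 higher and 1 lower) did not pass. No listed gene analysed here was without reads in all libraries, and 10 of the 13 listed skeletal muscle genes were analysed here.

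At the mitochondrial door, the subunits of the pyruvate dehydrogenase complex were lower in artery. Pdha1 (chrX:160122209-160138413, minus strand), the catalytic alpha subunit that the kinases phosphorylate, had a lowest, median and highest value of 144, 199 and 226 in artery, against 274, 302 and 439 in ventricle. It was lower, with a difference of -0.77 ± 0.15 without overlap (adjusted p = 0.00221, limma). Its partner Pdhb was at 108 ± 28.1 in artery and 198 ± 53.0 in ventricle, lower, with a difference of -0.88 ± 0.18 without overlap (adjusted p = 0.00346). Dlat, the acetyltransferase core, was at 60.8 ± 18.7 in artery and 98.8 ± 27.02 in ventricle, lower, with a difference of -0.71 ± 0.20 (adjusted p = 0.0218; call lost in 5 of 18 omissions, adjusted p up to 0.0929 without litter 3).

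The 4 kinases that inhibit the complex had differences between -1.17 and -0.20. Pdk1 (chr2:71873224-71903858, plus strand), known as a target of the hypoxia-inducible factor, had a lowest, median and highest value of 46.1, 78.0 and 98.9 in artery, against 101, 166 and 216 in ventricle. The groups did not overlap, and Pdk1 was lower, with a difference of -1.17 ± 0.20 (adjusted p = 0.000928, limma), or 2.24-fold, the largest difference after Slc16a1. Pdk3 was at 25.1 ± 6.09 in artery and 33.7 ± 3.23 in ventricle, lower, with a difference of -0.44 ± 0.15 (adjusted p = 0.0417), a call lost in 13 of 18 omissions (adjusted p 0.0558 to 0.118). Pdk2 was at 61.0 ± 12.5 in artery and 82.3 ± 17.04 in ventricle and did not pass (adjusted p = 0.0622), though it did with the litter as a block (adjusted p = 0.0335) and without artery 1 (adjusted p = 0.0291). Pdk4, the kinase induced by fasting and fatty acids in muscle, was at 25.5 ± 5.98 in artery and 30.2 ± 10.7 in ventricle (adjusted p = 0.507). Per kilobase, Pdk1 made up 22.9 ± 2.84% of the 4 kinases in artery and 33.8 ± 3.11% in ventricle, and Pdk2 45.0 ± 5.19% and 39.5 ± 1.94%.

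Of the 4 pentose phosphate enzymes, 3 had differences near 0. G6pdx, the NADPH-making entry enzyme, was at 25.8 ± 3.32 in artery and 24.8 ± 1.103 in ventricle, and the difference of 0.045 had a 95% interval of -0.15 to 0.24. Pgd, which makes the second NADPH, was at 77.7 ± 4.60 in artery and 76.8 ± 3.88 in ventricle (interval -0.13 to 0.17). Taldo1, the transaldolase of the branch back to glycolysis, was at 76.0 ± 8.66 in artery and 80.4 ± 7.11 in ventricle (interval -0.27 to 0.11). These 3 intervals lie above the median of the glycolytic enzymes, -0.74. Transketolase Tkt (chr14:30548359-30574720, plus strand) was the member that rose, at 104, 122 and 134 in artery (lowest, median, highest) and 91.4, 102 and 109 in ventricle, a difference of 0.25 ± 0.084 (adjusted p = 0.0465) in 6 of 6 litters with overlap. That call is weak, since it was lost in 15 of 18 omissions (adjusted p 0.0546 to 0.135), with the litter as a block (adjusted p = 0.0592) and with TMM scaling (adjusted p = 0.0599).

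Genes of the same routes outside the 35 members were followed from a list. Of 59 listed, 50 were analysed here and 43 tested, of which 10 were lower, 4 were higher and 29 missed the threshold, with a median of -0.17, beside 11.8% lower, 12.2% higher and a median of -0.040 over all genes. Among the lower ones were Pfkfb3 (-0.97 ± 0.17), whose product activates phosphofructokinase, the phosphoglucomutases Pgm1 (-0.46 ± 0.097) and Pgm2 (-0.67 ± 0.15), and the remaining pyruvate dehydrogenase subunits Dld (-0.86 ± 0.19, adjusted p = 0.00532, limma) and Pdhx (-0.67 ± 0.16, adjusted p = 0.00724). The other lower genes included Pcx, Prps1, the mitochondrial pyruvate carrier Mpc1 and the carrier chaperone Bsg, named here after their values were seen. Higher in artery were Slc2a10 (0.99 ± 0.15), a glucose carrier linked in humans to arterial tortuosity, Pck2 (0.30 ± 0.087), Galm (0.38 ± 0.12) and Pfkfb4 (0.58 ± 0.20). Pfkfb3 was at 29.4 ± 10.5 in artery and 56.3 ± 5.75 in ventricle, and Slc2a10 at 32.04 ± 8.64 in artery and 15.3 ± 1.95 in ventricle (n = 6 per group, SD).

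Promoters were read for the members because so many of them moved together, and because several glycolytic genes are textbook targets of the hypoxia-inducible factor, whose response element holds the letters ACGTG. RefSeq promoter sequences of GRCm38.p6 matched 33 members (all but Slc2a3 and Slc2a4), and the 250 bases before the start were searched on both strands. ACGTG was found for 13 of the 33 members (39.4%), against 24.8% of 10551 tested genes with an entry and 16.6% of all 32851 promoters. By route it was present in 7 of 19 glycolytic genes, 3 of 3 carriers, 3 of 7 pyruvate entry genes and 0 of 4 pentose phosphate genes. A loose form of the MEF2 motif, CTA and TAG with any 4 bases between, was found for 1 member (Ldhb; 3.28% of tested genes). AAGGTCA, the core motif of estrogen-related receptors, was found for 1 (Eno1; 3.47%). Shown here are the windows of the member with the largest difference, of Pgk1, and of a pentose phosphate gene with no match, 5′ to 3′ on the gene's strand with ACGTG in either orientation in capitals. They lie at chr3:104638414-104638663 (Slc16a1), chrX:106186850-106187099 (Pgk1) and chr7:141391910-141392159 (Taldo1), all on the plus strand. The windows were picked after the matches were seen and do not stand for all members: Pdk1 and Ldhb, which were lower, had no match, while Pfkm and Pdk2, which did not pass, had up to 2 in a window.
Slc16a1: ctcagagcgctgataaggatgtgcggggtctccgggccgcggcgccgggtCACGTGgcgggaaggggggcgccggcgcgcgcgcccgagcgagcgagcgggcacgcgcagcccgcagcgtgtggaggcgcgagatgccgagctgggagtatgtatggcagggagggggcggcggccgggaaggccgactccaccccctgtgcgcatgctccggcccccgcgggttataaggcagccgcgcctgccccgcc
Pgk1: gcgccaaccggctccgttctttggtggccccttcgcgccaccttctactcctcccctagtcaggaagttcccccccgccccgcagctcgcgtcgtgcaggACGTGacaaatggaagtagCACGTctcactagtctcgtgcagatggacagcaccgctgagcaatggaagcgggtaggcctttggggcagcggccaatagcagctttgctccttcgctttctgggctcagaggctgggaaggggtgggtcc
Taldo1: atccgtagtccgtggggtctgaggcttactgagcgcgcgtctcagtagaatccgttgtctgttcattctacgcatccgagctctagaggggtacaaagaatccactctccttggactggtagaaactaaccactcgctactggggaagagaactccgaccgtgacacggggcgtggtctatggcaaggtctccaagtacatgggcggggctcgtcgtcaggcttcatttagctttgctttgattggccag
The palindrome in the Slc16a1 window reads ACGTG on each strand and so counts as 2 overlapping matches, between 200 and 195 bases before the start. The Pgk1 window holds 2 separate matches, at 150 to 146 and 131 to 127 bases before the start, in opposite orientation. A match is a run of letters and does not show binding.

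Levels of different members were compared per kilobase of the principal transcript. Aldoa, Pkm, Ldha and Tpi1 led in artery at 403 ± 121, 270 ± 61.0, 256 ± 69.8 and 230 ± 62.4, and in ventricle they stood at 693 ± 163, 402 ± 68.1, 429 ± 85.5 and 404 ± 67.0 (n = 6 per group, SD). Pkm, Ldha and Tpi1 lay within their spread of each other in both groups. Aldoc was lowest at 3.21 ± 0.864 in artery and 5.44 ± 1.07 in ventricle, followed by Slc2a3. Ldhb ranked 8 of 35 in artery and 6 in ventricle, Slc16a1 19 and 15, and Tkt 16 and 25. Reads of 11 members can be shared with near-identical copies, and summing 6 of them with their copies analysed here (Gpi1, Gapdh, Pgk1, Pgam1, Eno1 and Ldhb) changed no call. The order of levels leaves such copies out, so the places of members with copies, such as Gapdh and Eno1, are uncertain. The exons of 10 members (Slc2a1, Hk1, Gpi1, Pfkp, Pfkm, Aldoa, Tpi1, Gapdh, Pdha1 and G6pdx) also overlap a gene on the other strand, and the labels do not say that the libraries mark strand.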

How the data were processed

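PolyA RNA of 12 libraries, 6 per group, was sequenced as single reads of 50 bases, per the labels' protocols. Tools listed in the submitters' processing notes are RSEM 1.2.3, cutadapt 1.3 and CASAVA 1.8.2, with the build GRCm38, while no source used here gives the scaling tool or a gene filter. The authors deposited a normalized signal. Its values were (whole reads + 0.5) times a factor for each library, which was found from the values: 100% of 211644 were whole within 0.02 reads. Single-read libraries without stated strand marking do not separate antisense partners.

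Genes with a mean of at least 1 (14779) were tested by limma 3.58.1 (R 4.3.3) on log2(value + 1) with a trended, robust prior, without litter. The design had planned edgeR for whole-number counts and limma for normalized values, so limma applied. Recovered reads were also tested by edgeR 4.0.16, DESeq2 1.42.0 and limma-voom, and of 15429 genes edgeR called 1934 higher and 1550 lower in artery. The procedure was tested on simulated data, where it recovered 15 of 50 genes changed 1.5-fold and 49 of 50 changed 2-fold. A difference near 1.5-fold was thus often missed there, and 8 unchanged genes were called. The simulation gave every gene the same dispersion and had no litters or tissue mixture. Recovery may therefore be lower for members with more spread. Coordinates came from GENCODE M21, and near-identical copies from blastn on its transcripts.

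The litter pairs the libraries, as the labels state that the tissues of each litter were pooled separately. In litters 1 and 6 the artery and ventricle libraries came from different lanes. Artery 6 was the only library of lane 4, so it adds nothing to the tissue difference in the fit with lane as a term. After each group was centred on its mean, the artery and ventricle libraries of the same litter had a mean correlation of 0.215. Single litters ran from -0.014 in litter 1 to 0.396 in litter 5, and 3 of 6 artery libraries matched their own litter best. The mean over different litters, -0.043, is largely fixed by the centring, so it is not a separate comparison. The members, the gene lists and the tests were chosen with earlier results of these data known. All members are named, and of the other pathway genes the 5 with the smallest p per direction. Of the other pathway genes counted, 1 is not reported by name here.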

Additional observations from a re-analysis of the deposited data

Results flagged for a closer look

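Among 84 groups of 6 values looked at for a library far from the others, 11 had one. The cut-off used gives about 1 in 20 for independent normal values. The members vary together over the same libraries, so that rate is no measure of chance here. Of these 11, 6 were ventricle 2, highest of its group at 47.7 for Slc2a4 (others up to 31.1), 260.7 for Pfkp (167), 1513 for Aldoa (1052), 364 for Eno3 (209), 439 for Pdha1 (333) and 299 for Pdhb (206). Ventricle 2 also had the highest heart muscle share of reads, 4.15%. Artery 1 was high for Gapdh at 291 (others up to 134) and Aldoc at 13.6 (9.10), and artery 4 for Slc16a1 at 273 (147) and G6pdx at 32.2 (25.6). Ventricle 5 was high for Eno2 at 41.7 (33.8). Without artery 1 and artery 4, 26 members were lower in artery, and without ventricle 2 the count was 19, with 1 muscle isozyme. The causes were not tested.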

How the results depend on the processing

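The 22 members lower in artery were called again under both other pseudocounts, both other filters, TMM, median-of-ratios and plain CPM scaling (added after seeing the data), the litter block, edgeR, DESeq2, limma-voom, without artery 1 and artery 4, and summed with copies (also added). With lane as a term 20 were called. Omitting 1 litter or 1 library gave 14 to 26 lower and 0 to 1 higher, with 8 to 16 for glycolysis, 3 to 4 for carriers, 3 to 6 for pyruvate entry, 0 to 0 for pentose phosphate, 1 to 4 for muscle isozymes, 12 to 20 for widely expressed ones, and 6 to 13 lower and 1 to 5 higher for other pathway genes. The lowest count among single libraries left out was 18, without artery 3 or artery 5. Within lane 1 the counts lower were 3 for members, 0 for glycolysis, 1 for carriers, 2 for pyruvate entry, 0 for muscle isozymes, 3 for widely expressed ones and 0 for other pathway genes (0 higher). Within lane 2 they were 9, 8, 1, 0, 1, 7 and 0 (2 higher), in the same order. Fewer libraries entered each lane fit.

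Tkt, the 1 member higher, lost its call (0 higher) without a filter, with TMM, with the litter as a block, with lane as a term, within either lane, and without artery 1 and artery 4. Muscle isozymes lower numbered 4 with the litter as a block and without artery 1 and artery 4, and 1 with lane as a term. The litter block changed the calls of Pgam2, Eno3, Pdk2 and Tkt and no other member.

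The log2 ratio Pfkm over Pfkl (0.46) had adjusted p = 0.09375 and log2 ratio Ldhb over Ldha (-0.27) adjusted p = 0.125 by exact permutation within litters (the replicate block). Before adjustment Pfkm over Pfkl was at the smallest p this permutation allows, 0.03125. Without artery 1 and artery 4 Ldhb over Ldha was -0.29 and missed the threshold (adjusted p = 0.105, exact permutation), and log2 ratio Slc2a4 over Slc2a1 was 0.75 and passed (adjusted p = 0.0429, exact permutation). Omitting a litter gave 0.43 to 0.503 for Pfkm over Pfkl, -0.44 to -0.080 for Pgam2 over Pgam1, -0.030 to 0.15 for Eno3 over Eno1, -0.33 to -0.21 for Ldhb over Ldha, -0.029 to 0.14 for Hk2 over Hk1, 0.54 to 0.80 for Slc2a4 over Slc2a1, and -1.45 to -0.99 percentage points for the heart muscle share.

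Signs turned for 3 members near 0. Eno2 was at 0.043 with lane as a term, 0.19 within lane 1, 0.030 by edgeR and 0.019 by DESeq2, and between -0.15 and 0.068 in omissions. G6pdx was at -0.031 without artery 1 and artery 4 and between -0.019 and 0.082 in omissions. Pgd was at -0.038 within lane 1 and between -0.012 and 0.033 in omissions. The causes were not tested. Artery 1 and artery 6 had the fewest reads, 6.77 and 7.97 M.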

Other observations

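Genes known to be induced by low oxygen but acting outside glycolysis also differed between the layers. Of 15 listed, 8 were lower in artery, 2 higher and 5 not past the test (limma), beside 11.8% lower and 12.2% higher over all genes. Their median was -0.37. They made up 0.0958 ± 0.0052% of an artery library and 0.121 ± 0.0069% of a ventricle library (n = 6 per group, SD; exact permutation p = 0.00216, the smallest possible, adjusted p = 0.00595 over 11 lists). P4ha1, the listed gene with the highest mean, was at 157 ± 26.9 in artery and 192 ± 21.7 in ventricle and did not pass (adjusted p = 0.0827, limma). Ndrg1, a stress-induced gene, was at 124 ± 13.05 in artery and 164 ± 14.7 in ventricle (-0.39 ± 0.091, adjusted p = 0.00649). Vegfa, the main growth factor for blood vessels, was at 109 ± 17.5 in artery and 129 ± 27.8 in ventricle and did not pass (adjusted p = 0.268). The higher genes, named after their values were seen, were the vasodilator peptide gene Adm (0.82 ± 0.19) and the collagen prolyl hydroxylase subunit P4ha2 (0.44 ± 0.10). Whether low oxygen plays a part in the differences of the members was not tested.

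Cell cycle genes took 0.0648 ± 0.0104% of reads in artery and 0.0898 ± 0.0130% in ventricle, with 6 of 10 lower and 0 higher (exact permutation p = 0.00433, adjusted p = 0.00794). Immediate early genes took 0.0283 ± 0.0024% in artery and 0.0243 ± 0.0006% in ventricle (exact permutation adjusted p = 0.00595), with 2 of 9 higher and 2 lower. Over all genes 11.8% were lower and 12.2% higher. The part of cell cycle and immediate early genes in the differences of the metabolic genes was not tested.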
